A study of Mus musculus with 10 samples.

Results

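RNA-seq counts of 8 genes that carry iron into, store it in and move it out of intestinal cells were examined in mouse intestinal organoids: *Slc11a2*, *Cybrd1*, *Tfrc*, *Fth1*, *Ftl1*, *Slc40a1*, *Heph* and *Hmox1*. They were taken by gene symbol from a table of 47069 genes; all 8 are in the table, and all 8 passed the filter on low counts that left 16179 genes for testing. There were 10 libraries, 2 in each of 5 groups, from C57BL/6 organoids kept for 50 days in Matrigel with Noggin, EGF and R-spondin-1 (NER medium). Every group, the control included, came from *Lgr5-EGFP-CreERT2*; *Ppp2r1a* fl/fl organoids, in which tamoxifen (TAM) turns on a Cre recombinase that is made only where the stem cell gene *Lgr5* is active and that removes part of *Ppp2r1a*, the scaffold subunit of protein phosphatase 2A (PP2A). The groups were control (saline), the carcinogen DMBA, tamoxifen in a set labelled short (TAM short), tamoxifen in a set labelled long (TAM long), and a group given DMBA as well as tamoxifen (DMBA+TAM). The DMBA libraries are labelled long as well. The descriptions of TAM short and TAM long call the tamoxifen dosage-sensitive, a word that those of DMBA+TAM lack. What short, long and dosage-sensitive mean is not explained in the sources used here. The treatments are taken from the sample descriptions alone. The titles of the same libraries are NS (control), NL (DMBA), DSS_S (TAM short), DSS_L (TAM long) and Lgr5 (DMBA+TAM); they name neither DMBA nor tamoxifen and are not explained, so the group names used below are those of the descriptions and were not settled by the data. The labels do not say whether the 2 libraries of a group came from separate mice or cultures, so the p-values measure only the spread between these libraries, which may be technical.

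Iron from food is reduced at the surface of the enterocyte by the ferric reductase that *Cybrd1* encodes and taken up by the divalent metal transporter *Slc11a2*, while most other cells take iron from transferrin through the transferrin receptor, *Tfrc*. Inside the cell iron is kept in ferritin, a shell of heavy (*Fth1*) and light (*Ftl1*) chains. It leaves through ferroportin (*Slc40a1*), the only known iron exporter of mammals, helped by the ferroxidase hephaestin (*Heph*), and heme oxygenase 1 (*Hmox1*) frees iron from heme. When iron is scarce, iron regulatory proteins bind a short RNA hairpin, the iron-responsive element: in the 5′ UTR it blocks translation, and in the 3′ UTR of *Tfrc* it protects the mRNA from decay. RNA-seq measures mRNA, so control of translation at such a hairpin is not seen in the values below.

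The hairpins are shown because they divide the genes by the kind of post-transcriptional control known for each. Transcripts of GENCODE M21 (GRCm38) were searched on the sense strand for the loop CAGTGN above 5 paired bases, an unpaired C below these pairs and at least 4 of 5 further pairs under it, with G-T pairs allowed. A second form with 1 more unpaired base in the 3′ arm was searched as well. In the sequences below, read 5′ to 3′ on the strand of the gene, the capitals mark the unpaired C and the loop.
*Fth1*, 5′ UTR, exon 1 of 4, chr19:9982733-9982759, plus strand: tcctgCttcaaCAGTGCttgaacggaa
*Ftl1*, 5′ UTR, exon 1 of 4, chr7:45459780-45459806, minus strand: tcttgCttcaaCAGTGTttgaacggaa
*Slc40a1*, 5′ UTR, exon 1 of 8, chr1:45925466-45925492, minus strand: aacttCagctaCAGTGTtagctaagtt
*Tfrc*, 3′ UTR, exon 19 of 19, chr16:32631220-32631246, plus strand: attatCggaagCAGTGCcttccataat
*Tfrc*, 3′ UTR, exon 19 of 19, chr16:32631599-32631625, plus strand: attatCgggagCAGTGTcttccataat
*Tfrc*, 3′ UTR, exon 19 of 19, chr16:32631664-32631690, plus strand: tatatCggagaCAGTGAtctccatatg
*Tfrc*, 3′ UTR, exon 19 of 19, chr16:32631711-32631737, plus strand: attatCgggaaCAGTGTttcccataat
*Slc11a2*, 3′ UTR, exon 16 of 16, second form, chr15:100395153-100395180, minus strand: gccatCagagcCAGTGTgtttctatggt
Thus 4 of the 8 genes held the main form and *Slc11a2* held the second, and these letters were not found in the transcripts of *Cybrd1*, *Heph* and *Hmox1*. Among 21901 protein-coding genes, 30 (0.137%) held the main form and 77 (0.352%) held either form. A match describes the sequence and is not a measured binding site. The *Fth1* element was found in 4 annotated transcripts and each of the other elements in 1. The counts below are per gene and do not separate transcripts with the element from those without it.

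The marker genes of cell types and gut segments differed strongly between the groups, and this bears on every result. DMBA+TAM libraries had 1592366 and 1915270 counted reads against 8828247 to 10923673 in the other 8, so that 3 reads equal 1.32 to 1.58 normalized CPM (CPM, read counts divided by TMM-scaled library totals) in DMBA+TAM and 0.259 to 0.379 elsewhere. The 10 epithelial markers, such as *Epcam* and *Cdh1*, summed to 13398 to 22981 normalized CPM in the other libraries and to 25.11 to 34.31 in DMBA+TAM, where 10 of 10 were called lower than in control. The 12 macrophage markers went the other way, with sums of 224.6 to 421.2 elsewhere and 7517 to 7937 in DMBA+TAM and with 12 of 12 called higher, and *Adgre1*, *C1qa* and *Cd163*, which define these cells, were at 431 ± 12, 1045 ± 31.3 and 338 ± 12.1 there (mean ± SD, n = 2). The 12 fibroblast markers summed to 765.9 to 2554 elsewhere and to 33665 to 34688 in DMBA+TAM, with 11 of 12 called higher. The 10 small intestine markers summed to 30551 to 32506 in control and TAM short and to 498.9 to 1258 in DMBA and TAM long, and the 8 colon markers in the table summed to 539.6 to 630.5 in the former and to 3503 to 12836 in the latter, a split that runs with the letters S and L of the titles. The 10 enterocyte markers summed to 49010 to 55005 in control and 17912 to 20646 in TAM short. Their sums were 466.8 to 823.5 in DMBA, 1026 to 1058 in TAM long and 71.81 to 85.51 in DMBA+TAM. Control and TAM short differed in single genes too: *Fabp6*, a bile acid carrier of the ileum, was at 8406 ± 791 in TAM short and 1.53 ± 1.83 in control, and lactase (*Lct*) was at 1.97 ± 1.53 and 1417 ± 195. *Ppp2r1a*, the targeted gene, was not lower than in control in any group labelled as tamoxifen. It had 123 and 129 normalized CPM in control, 131 and 147 in TAM short, 169 and 157 in TAM long, 167 and 153 in DMBA, and 129 and 133 in DMBA+TAM. It was called higher than control in TAM long (0.37 ± 0.11, adjusted p = 0.0213) and DMBA (0.34 ± 0.11, adjusted p = 0.0291), and lower in DMBA+TAM than in TAM long (−0.31 ± 0.11, adjusted p = 0.0403). With library size only it was also called higher than control in DMBA+TAM (0.55 in place of 0.06), and the call between DMBA+TAM and TAM long was lost (−0.14). Reads of the floxed part were not counted apart from the rest of the gene, so the deletion itself was not measured.

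**Figure D1:**
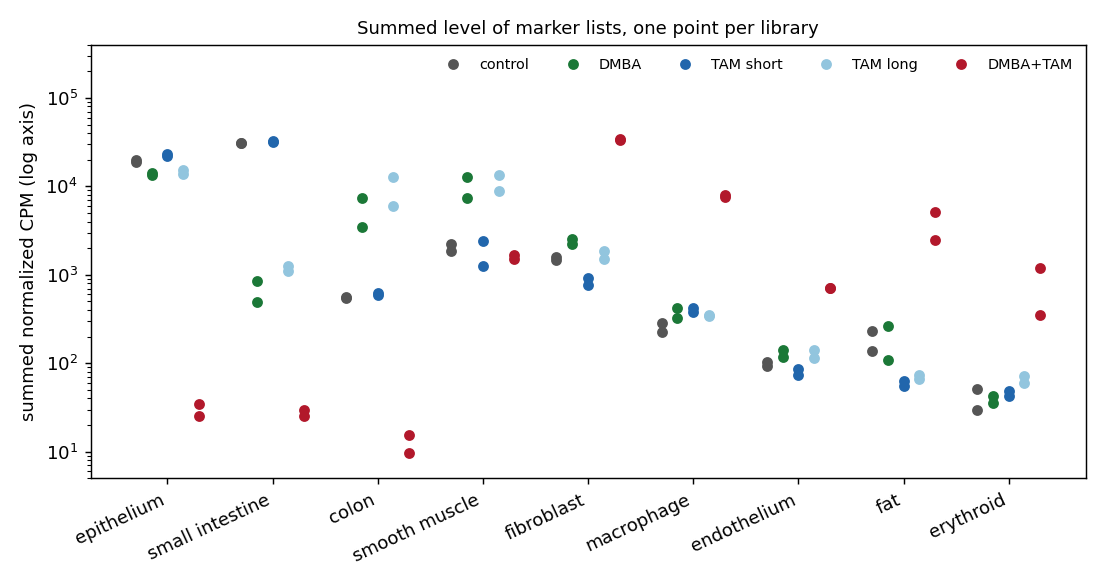
Summed normalized CPM of marker lists (log axis) in each of 10 libraries, with 2 points per group. DMBA+TAM sits far below the other groups for epithelium, small intestine and colon markers and above them for fibroblast, macrophage, endothelium, fat and erythroid markers, and DMBA and TAM long part from control and TAM short for small intestine, colon and smooth muscle markers.

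Per length, the ferritin chains had by far the highest level of the 8 genes in every group. In control the authors' FPKM was 1002 ± 92.3 (mean ± SD, n = 2) for *Fth1* and 553 ± 31.9 for *Ftl1*, followed by *Tfrc* (169 ± 6.12), *Heph* (98.9 ± 3.38), *Slc11a2* (37.9 ± 1.15), *Slc40a1* (6.03 ± 0.475), *Hmox1* (2.93 ± 1.44) and *Cybrd1* (1.26 ± 0.0653). In DMBA and TAM short, *Slc40a1* stood above *Slc11a2* and *Heph*, at 103 ± 23.6 and 155 ± 36 FPKM, and in TAM long it was at 172 ± 92. In DMBA+TAM the third place was taken by *Hmox1*, at 166 ± 3.11 FPKM, and *Slc40a1* had 2.53 ± 1.13. The iron genes together took 0.184% to 0.423% of all counted reads, and the ferritin chains alone 0.124% to 0.328%. The gene length behind FPKM differs from the length listed in the table for 6 of the 8 genes, and on the listed length *Heph* would stand above *Tfrc* in control, at 77.1 against 68.2, and *Slc40a1* below *Heph* in TAM short, at 59.8 against 75.2.

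**Figure D2:**
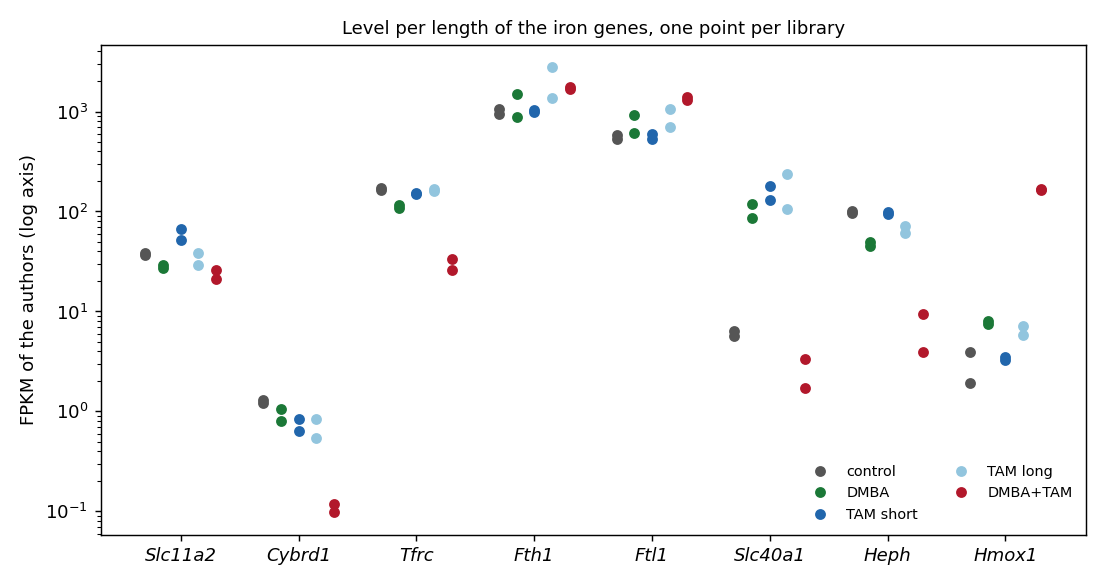
FPKM of the 8 iron genes (log axis), 1 point per library, with 2 libraries in each group. *Fth1* and *Ftl1* lie at the top in every group, *Slc40a1* spans from 1.73 FPKM in a DMBA+TAM library to 237 in a TAM long library, and *Hmox1* is high in DMBA+TAM alone.

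*Slc11a2* (ENSMUSG00000023030, chr15:100387898-100425072, minus strand) brings iron across the apical membrane. It had 57.9 and 62.5 normalized CPM in control, 34.6 and 37.2 in DMBA, 78.1 and 100.2 in TAM short, 48.5 and 37.1 in TAM long, and 23.8 and 29.5 in DMBA+TAM. TAM short was thus the highest group and DMBA+TAM the lowest, the libraries of DMBA and TAM long overlapped, and all other neighbours in that order lay apart. In FPKM, *Slc11a2* in control (37.05 and 38.67) and TAM long (38.31 and 28.91) overlapped as well. It fell in DMBA+TAM against control by 1.17 ± 0.19 on the log2 scale (± SE, adjusted p = 0.000441) and in DMBA against control by 0.75 ± 0.17 (adjusted p = 0.00548). In TAM short the difference was 0.57 ± 0.17 with an adjusted p of 0.0508. The sets of tamoxifen libraries differed from each other, with TAM long lower than TAM short by 2.08-fold (adjusted p = 0.000935). TAM long was called lower than control as well (−0.49 ± 0.17, adjusted p = 0.0377), but that call was lost without control replicate 1 (−0.55), control replicate 2 (−0.44) or TAM long replicate 2 (−0.32), and over its 13 alternatives the adjusted p ran from 0.0127 to 0.441. Scaling by library size alone gave −0.17 for TAM long and −0.44 for DMBA, and both calls were lost, as they were by limma and with thinned counts. TAM short was called above control in 6 of 13 alternatives, with library size scaling (0.65), DESeq2 and no filter among them (adjusted p from 0.00236 to 0.385). DMBA+TAM was 3.33-fold lower than TAM short (adjusted p = 2.95e-05) and lower than TAM long by 0.68 ± 0.19 on the log2 scale (adjusted p = 0.0138), the latter lost without DMBA+TAM replicate 1 (−0.54) or TAM long replicate 1 (−0.49), with library size scaling (−0.50) and with thinned counts (−0.49). Against DMBA the difference was −0.42 ± 0.20 (adjusted p = 0.0917), called with no filter (−0.48).

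*Cybrd1* (ENSMUSG00000027015, chr2:71117923-71142926, plus strand), the ferric reductase, had the lowest FPKM of the 8 genes in every group. Control libraries held 8.14 and 7.83 normalized CPM (72 and 65 reads), and the values were 5.09 and 4.38 in DMBA, 4.97 and 3.79 in TAM short, and 4.23 and 2.75 in TAM long. Each DMBA+TAM library had a single read. Both control libraries were above all others, and DMBA, TAM short and TAM long overlapped as neighbours. The decrease passed the test in TAM long (log2 fold change −1.18 ± 0.29, adjusted p = 0.00776), though not by limma nor without TAM long replicate 2 (−0.92, with adjusted p from 0.00284 to 0.101 over 13 alternatives). In DMBA the value was −0.75 ± 0.28 (adjusted p = 0.0519) and in TAM short −0.86 ± 0.29 (adjusted p = 0.0766), the former called with the replicate block and without DMBA+TAM (−0.76 in both) and the latter when only the groups compared were fitted (−0.81). In DMBA+TAM it was called lower than control (adjusted p = 0.00012), and the ratio of pooled reads was 16.7 in favour of control, with an exact 95% interval from 4.53 to 139 that covers counting error only. The same ratio was 9.95 for DMBA (2.68 to 83.3), 9.21 for TAM short (2.46 to 77.5) and 7.38 for TAM long (1.98 to 62), all called, the last not with thinned counts.

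*Tfrc* (ENSMUSG00000022797, chr16:32608920-32632794, plus strand), the receptor that brings in transferrin-bound iron, carried the 4 hairpins of the 3′ UTR shown above. It had 378 and 412 normalized CPM in control, 328 and 338 in TAM short, 295 and 316 in TAM long, 191 and 237 in DMBA, and 54.9 and 43.2 in DMBA+TAM. The groups did not overlap in these values, with control the highest and DMBA+TAM the lowest. In FPKM, *Tfrc* in control (165 and 173.7) and TAM long (159 and 167.5) did overlap. It fell in DMBA+TAM against control by 3.01 ± 0.16 on the log2 scale (8.08-fold, adjusted p = 1.99e-07) and in DMBA by 0.88 ± 0.15 (1.85-fold, adjusted p = 0.000896). Both calls held in every alternative tried. The differences from control in TAM short (−0.25 ± 0.15, adjusted p = 0.301) and TAM long (−0.37 ± 0.15, adjusted p = 0.0607) did not pass. The TAM long result depended on the method: 4 of 13 alternatives called it lower (DESeq2, no filter, only the groups compared and the fit without DMBA+TAM, −0.39 to −0.36), while library size scaling gave −0.05. DMBA+TAM was also lower than DMBA (4.38-fold), TAM short (6.81-fold) and TAM long (6.24-fold), with adjusted p-values of 2.74e-06, 3.56e-07 and 6.43e-07. In these libraries of few epithelial reads, fewer cells of a type and less RNA per cell cannot be told apart, here and for the genes that follow.

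**Figure D3:**
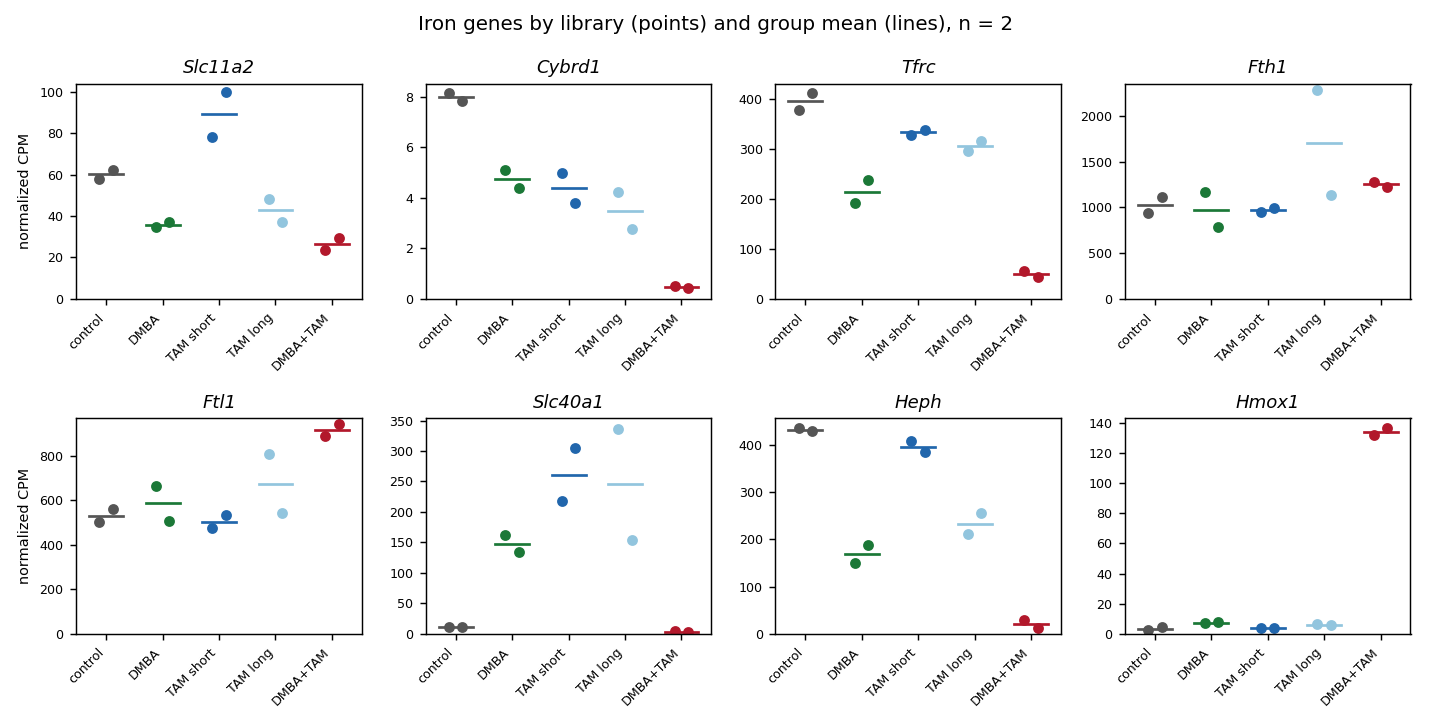
Normalized CPM of each iron gene in 10 libraries (points) with the mean of each group (lines, n = 2); every axis starts at 0 and has its own scale. *Tfrc*, *Heph* and *Cybrd1* are lowest in DMBA+TAM, *Slc40a1* is high in DMBA, TAM short and TAM long and low in control and DMBA+TAM, and *Hmox1* is high in DMBA+TAM.

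*Fth1* (ENSMUSG00000024661, chr19:9982703-9985092, plus strand), the heavy chain with the ferroxidase center, had 944 and 1112 normalized CPM in control, 1168 and 781 in DMBA, 947 and 996 in TAM short, 2279 and 1134 in TAM long, and 1278 and 1225 in DMBA+TAM. Replicate 1 of TAM long stood apart at 2.01 times its partner, and most other libraries overlapped. Compared with control, the log2 difference was −0.08 ± 0.29 in DMBA as in TAM short, 0.73 ± 0.29 in TAM long and 0.28 ± 0.29 in DMBA+TAM; none passed the test (adjusted p from 0.0678 to 0.894). When only the groups compared were fitted, DMBA+TAM was called above control (0.38) and above TAM short (0.43 in place of 0.37). The sign of the small values in DMBA and TAM short depended on the scaling, being 0.25 and 0.01 with library size only. TAM long was called higher than TAM short (1.76-fold, adjusted p = 0.0498), and this call rested on TAM long replicate 1: without it the log2 fold change was 0.22 in place of 0.81, and it was also lost without TAM short replicate 1 (0.77) or 2 (0.84). It was lost by limma too, without DMBA+TAM, and when only the groups compared were fitted. TAM long was called above control in 7 of 13 alternatives: library size scaling (1.06), DESeq2 (0.72), no filter (0.71), both limma fits (0.97), thinned counts (0.76) and without TAM long replicate 2 (1.14). Without TAM long replicate 1 the value was 0.14 (adjusted p from 2.35e-05 to 0.701 over the 13). DMBA+TAM against TAM long was at −0.45 ± 0.29 (adjusted p = 0.224), called lower with no filter (−0.50) and without TAM long replicate 2 (−0.88), and at 0.12 without TAM long replicate 1.

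*Ftl1* (ENSMUSG00000050708, chr7:45457944-45459884, minus strand), the light chain, had 500 and 562 normalized CPM in control, 666 and 507 in DMBA, 473 and 534 in TAM short, 807 and 540 in TAM long, and 890 and 945 in DMBA+TAM. Both DMBA+TAM libraries exceeded every other library, and the other groups overlapped as neighbours. It rose in DMBA+TAM against control by 1.73-fold (log2 fold change 0.79 ± 0.20, adjusted p = 0.00663), against TAM short by 1.82-fold (adjusted p = 0.00411) and against DMBA by 1.56-fold (adjusted p = 0.0216). The call against control was lost without control replicate 1 (0.68), and that against DMBA without DMBA replicate 2 (0.44), DMBA+TAM replicate 1 (0.68) or DMBA+TAM replicate 2 (0.60). Against TAM long the difference was 0.45 ± 0.20 (adjusted p = 0.0873), and 6 of 12 alternatives called it: library size scaling (0.62), DESeq2 (0.51), no filter (0.40), both limma fits (0.65) and without TAM long replicate 1 (0.74). TAM long was called above control with library size scaling (0.67) and without TAM long replicate 2 (0.60), and above TAM short with library size scaling (0.65), no filter (0.40) and without TAM long replicate 2 (0.67). The ratio of *Fth1* to *Ftl1* in FPKM was 1.34 and 1.21 in DMBA+TAM against 1.76 and 1.85 in control, 1.64 and 1.44 in DMBA, 1.87 and 1.74 in TAM short, and 2.64 and 1.96 in TAM long, so that the DMBA+TAM libraries had the lowest share of heavy chain; no test was made of this ratio. *Ftl1* has 9 copies of similar sequence in the annotation, counted also where only part of the transcript matched. The table lists 7 of these copies with 158 reads in all, 0.0903% to 0.541% of the reads on *Ftl1* and its copies in a library. How reads that fit several copies were counted is not given in the sources used here.

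Ferroportin (*Slc40a1*, ENSMUSG00000025993, chr1:45908068-45926523, minus strand) had the largest fold change of the 8 genes in DMBA, TAM short and TAM long against control. It had 11.2 and 10.4 normalized CPM in control, 161 and 134 in DMBA, 218 and 304.5 in TAM short, and 337 and 154 in TAM long. In DMBA+TAM it was at 4.22 and 2.20, from 8 and 5 reads. The 6 libraries of DMBA, TAM short and TAM long overlapped as neighbours and all lay above control, which lay above DMBA+TAM. Against control it rose 13.7-fold in DMBA (log2 fold change 3.77 ± 0.36, adjusted p = 3.34e-05), 24.2-fold in TAM short (4.60 ± 0.37, adjusted p = 8.11e-05) and 22.8-fold in TAM long (4.51 ± 0.37, adjusted p = 1.25e-05). These 3 calls held in every alternative, including the fit without the DMBA+TAM libraries, and without TAM long replicate 1 the log2 fold change in TAM long was 3.83. TAM short differed from control in single small intestine markers, of which 3 of 10 were called higher and 6 lower: *Fabp6* and *Reg3g* (14492 ± 1733 against 2241 ± 502 normalized CPM) were higher, while *Lct*, *Apoa4* (235.9 ± 48.9 against 2050 ± 598) and *Fabp2* (4222 ± 1384 against 14445 ± 629) were lower. Its colon markers summed to 586.8 to 630.5, whereas in DMBA and TAM long the small intestine markers were low and the colon markers high, and *Slc40a1* was high in all 3 groups. The part of intestinal segment in this difference was not tested.

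DMBA+TAM had 46.9-fold, 83.0-fold and 78.0-fold less *Slc40a1* than DMBA, TAM short and TAM long, with adjusted p-values of 9.31e-06, 2.34e-06 and 3.48e-06. The log2 difference from TAM long went from −6.29 to −5.63 without TAM long replicate 1. Against control it was called lower too (3.43-fold, −1.78 ± 0.59, adjusted p = 0.0234), but with 13 DMBA+TAM reads this call was weak. It was lost without DMBA+TAM replicate 2 (−1.37) or control replicate 1 (−1.75) and with scaling by library size only (−1.28), with adjusted p from 2.5e-07 to 0.165 over 12 alternatives. Between TAM long and TAM short the difference was −0.09 ± 0.31 (adjusted p = 0.844), its sign turned with the scaling (0.14 with library size only), and without TAM long replicate 1, the highest library, TAM long was called lower (−0.77).

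*Heph* (ENSMUSG00000031209, X chromosome, 96455359 to 96574485, plus strand) encodes the membrane ferroxidase that works with ferroportin at the basolateral side. It had 436 and 430 normalized CPM in control, 408 and 385.5 in TAM short, 212 and 255 in TAM long, 151 and 189 in DMBA, and 29.0 and 12.3 in DMBA+TAM. The groups did not overlap in these values, and control and TAM short, the groups rich in small intestine markers, stood above TAM long and DMBA. The part of intestinal segment was not tested here either. In FPKM, *Heph* in control (101.2 and 96.46) and TAM short (99.21 and 93.5) did overlap. It fell in DMBA+TAM against control by 4.41 ± 0.31 on the log2 scale (21.3-fold, adjusted p = 9.67e-07) and in DMBA by 1.35 ± 0.25 (2.55-fold, adjusted p = 0.00169). It was 8.35-fold lower in DMBA+TAM than in DMBA, 19.5-fold lower than in TAM short and 11.5-fold lower than in TAM long, and these calls held in every alternative. With 55 and 28 reads in the DMBA+TAM libraries the size was less certain: without DMBA+TAM replicate 1 the log2 fold change was −5.16 against control, −3.78 against DMBA, −5.03 against TAM short and −4.24 against TAM long, and over the libraries left out it ran from −5.16 to −3.92 against control. In TAM short the difference from control was −0.13 ± 0.24 (adjusted p = 0.792). In TAM long it was called lower than control (−0.89 ± 0.25, adjusted p = 0.0149), and this call was lost without TAM long replicate 1 (−0.77), control replicate 1 (−0.89) or control replicate 2 (−0.91), by limma, and with scaling by library size only (−0.57), with adjusted p from 5.59e-08 to 0.18 over 13 alternatives. It was also called lower in TAM long than in TAM short (1.70-fold, adjusted p = 0.0313), and was not called when any of the 4 libraries was left out (−0.92 to −0.64), by limma, or with library size scaling (−0.54). Thus *Slc40a1* and *Heph*, which act in the same step, moved in opposite directions from control in DMBA and TAM long. Both were lower than control in DMBA+TAM. The calls of *Heph* in TAM long and of *Slc40a1* in DMBA+TAM against control did not hold in every alternative.

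*Hmox1* (ENSMUSG00000005413, chr8:75093591-75100596, plus strand) had 2.15 and 4.58 normalized CPM in control, 6.88 and 7.41 in DMBA, 3.50 and 3.79 in TAM short, and 6.56 and 5.41 in TAM long. In DMBA+TAM it was at 132.5 and 136.6. Both DMBA+TAM libraries stood far above all others, TAM short lay within the range of control, and DMBA and TAM long lay between. In DMBA+TAM it rose 40.1-fold against control (log2 fold change 5.33 ± 0.27, adjusted p = 1.31e-07), 18.8-fold against DMBA, 36.8-fold against TAM short and 22.4-fold against TAM long. All 4 calls held in every alternative, and without control replicate 2 the value against control was 5.93. The macrophage markers, among them *Cd163*, the receptor through which macrophages take up hemoglobin, rose in the same libraries, and so did the erythroid markers, which summed to 29.85 to 70.99 elsewhere and to 1193 and 353.8 there; their part in the level of *Hmox1* was not tested. Of the 8 erythroid markers in the table the globin genes *Hba-a1*, *Hbb-bs* and *Hbb-bt* were called higher, and *Hba-a2* was at 4.49 ± 2.61 against 3.52 ± 0.982 in control. *Klf1*, *Epb42* and *Slc4a1*, genes of red cell precursors, had no read in DMBA+TAM. In control they were at 0.644, 0.403 and 0 normalized CPM, below the 1.32 to 1.58 that 3 reads equal in DMBA+TAM. A difference in these 3 genes could therefore not be seen. In DMBA *Hmox1* rose 2.13-fold against control (1.09 ± 0.28, adjusted p = 0.00958), a call lost without control replicate 1 (0.63) and when only the groups compared were fitted. Without control replicate 2 the value was 1.71. In TAM long it rose 1.79-fold (0.84 ± 0.28, adjusted p = 0.0334), and this was not called without control replicate 1 (0.38), TAM long replicate 1 (0.69) or TAM long replicate 2 (0.96), nor in the fit without DMBA+TAM (0.82), with only the groups compared (0.85) or with thinned counts (0.95), with adjusted p from 0.00301 to 0.244 over 13 alternatives. Without control replicate 2 it was 1.46. Between TAM long and TAM short the difference was 0.72 ± 0.28 (adjusted p = 0.0626), called with library size scaling (0.95), no filter (0.69), only the groups compared (0.73) and by limma.

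**Figure D4:**
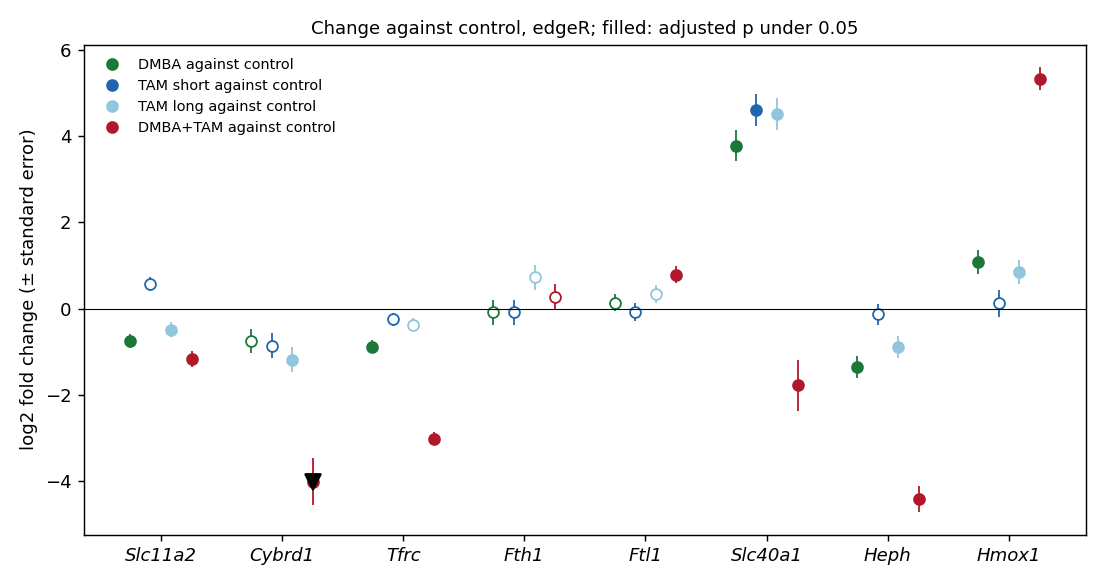
Log2 fold change of each iron gene against control (edgeR, with standard error) in the 4 treated groups; filled points have an adjusted p under 0.05. *Slc40a1* is between 3.77 and 4.60 in 3 groups and −1.78 in DMBA+TAM, and *Hmox1* reaches 5.33; the black triangle marks *Cybrd1* in DMBA+TAM, which rests on 2 reads and depends on the prior count of the fit.

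Counted over all 8 genes, the share called was read against that of all genes tested. In DMBA against control 5 of 8 were called (2 higher, 3 lower), while 47.8% of all genes were called (24.5% higher, 23.3% lower). In TAM short 1 was called, *Slc40a1*, against 14.3% of all genes (6.52% higher, 7.8% lower). In TAM long 5 were called (2 higher, 3 lower) against 46% (23.2% higher, 22.8% lower). The balance in TAM long turned with the scaling: 4 were higher and 1 lower with library size only, and 3 higher and 0 lower by limma on either FPKM scale, while DESeq2 and the fit with no filter each called 7 (3 higher, 4 lower). With 8 genes, these shares do not stand out from the background. In DMBA+TAM against control 7 were called (2 higher, 5 lower) against 64.3% (29% higher, 35.3% lower), and the 8 genes had a median of −1.47 on the log2 scale where all tested genes had −0.17. Against DMBA 6 were called (2 higher, 4 lower) with a background of 55.1% (25.2% higher, 29.9% lower), and against TAM short 7 (2 higher, 5 lower) with 63.1% (29.3% higher, 33.8% lower). Against TAM long 6 were called (1 higher, 5 lower) with 55.2% (25.3% higher, 29.9% lower). Between TAM long and TAM short 3 were called (1 higher, 2 lower) with 42.2% (22% higher, 20.3% lower), and with library size only 4 were called (3 higher, 1 lower). The comparisons with control share the control libraries, and those of DMBA+TAM share its libraries. Scaling by library size only raised the median of all genes by 0.48 in DMBA+TAM against control, with 62.5% of calls higher in place of 45.1%. The same shift was 0.31 for DMBA (71.2% in place of 51.2%), 0.08 for TAM short (58.6% in place of 45.5%) and 0.32 for TAM long (72.1% in place of 50.5%). It was 0.39 for DMBA+TAM against TAM short (61.5% in place of 46.4%), 0.23 for TAM long against TAM short (69.9% in place of 52%), and 0.18 and 0.17 for DMBA+TAM against DMBA (54.8% in place of 45.7%) and TAM long (54.3% in place of 45.9%).

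Other genes of iron and heme handling were followed in DMBA+TAM against control. The lists were drawn up from general knowledge, but with earlier results of these data known, so their counts are descriptive. The counts stand beside the 29% of all tested genes that were called higher and the 35.3% called lower in this comparison. Of 11 tested genes of the transferrin cycle and other routes of entry, 8 rose and 1 fell, with a median log2 fold change of 1.27. *Steap4*, a metalloreductase, rose from 1.76 ± 0.243 to 155 ± 47.9 normalized CPM (log2 fold change 6.45 ± 0.42, adjusted p = 5.96e-07), and *Tfr2*, the second transferrin receptor, went from 1 read in each control library to 14 and 21 in DMBA+TAM (ratio 71.9, interval 18.5 to 617). *Ltf* (lactoferrin) had 21 and 35 reads in control and none in DMBA+TAM, at least 2.27-fold lower when 3 reads per library are set for the latter. Of 8 genes of iron sensing and ferritin turnover, 2 rose, 4 fell and 2 did not pass, which turned to 4 higher and 1 lower with library size scaling. *Hfe*, which tunes hepcidin to transferrin iron, rose by 3.22 ± 0.23, and *Aco1*, whose protein is an iron regulatory protein when it lacks its iron-sulfur cluster, fell by 2.16 ± 0.15. The *Aco1* values were 279.5 and 322.9 in control, 187.3 and 184.1 in TAM short, 88.5 and 78.2 in DMBA, 87.0 and 79.0 in TAM long, and 58.1 and 76.2 in DMBA+TAM. *Aco1* was called lower than control in all 4 groups. The TAM short call was lost without control replicate 2 (−0.59), TAM short replicate 1 (−0.71) or TAM short replicate 2 (−0.68). It was also lost by limma on log2(FPKM + 0.1) (−0.60). *Pcbp2*, an iron chaperone, rose by 3.00 ± 0.14. *B2m*, the partner chain of the *Hfe* protein, fell by 0.78 ± 0.14, a call lost with library size scaling (−0.28, with adjusted p from 1.24e-07 to 0.13 over 12 alternatives).

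In the list of the hepcidin pathway and partners of export, 3 genes could be tested (*Bmp6*, *Cp* and *Neo1*), and 1 passed. *Cp*, the plasma ferroxidase ceruloplasmin, rose from 8.88 ± 0.891 to 222 ± 7.23 normalized CPM (4.64 ± 0.18, adjusted p = 2.82e-08) while *Heph*, its membrane counterpart, fell. *Hamp*, the hormone hepcidin that removes ferroportin from the cell surface, had no read in control or DMBA+TAM, 24 in DMBA, all in replicate 2, 13 in the TAM short libraries together and 1 in those of TAM long. Hemojuvelin, a co-receptor that raises hepcidin and is listed as *Hfe2*, had 87 reads in DMBA+TAM replicate 2 and none in the other 9 libraries, and did not pass the filter on low counts. The muscle marker *Des* also differed between the DMBA+TAM libraries (262.2 ± 328 normalized CPM), where the 8 smooth muscle markers together summed to 1495 and 1672. A link of *Hfe2* to muscle genes was not tested. Of 7 genes of mitochondrial iron, 6 fell and none rose (median −1.41), among them the transporter *Abcb8* (−2.38 ± 0.20); 35.3% of all genes fell, and library size scaling gave 4 lower and 1 higher. Of 9 genes of heme synthesis, 5 fell and 1 rose. The enzymes *Alad* and *Alas1* fell by 2.61 ± 0.18 and 1.78 ± 0.34. *Alas2*, the form of red cell precursors, rose from 3 and 9 reads to 40 and 12 (4.18 ± 0.80, and 2.86 to 5.17 with a library left out), in libraries where 3 globin genes were high. *Klf1*, *Epb42* and *Slc4a1* had no read there, but their level in control was too low for a difference to be seen. Of 9 genes of heme transport and breakdown, 5 rose and 2 fell. *Hp* (haptoglobin, which binds free hemoglobin) rose from 0.828 ± 0.532 to 1513 ± 888 normalized CPM (log2 fold change 10.82 ± 0.66, and 10.03 to 11.63 with a library left out) and *Cd163* from 4.08 ± 0.148 to 338 ± 12.1, whereas the heme importer *Slc46a1* and the exporter *Abcg2* fell by 2.53 ± 0.48 and 2.00 ± 0.16. The *Slc46a1* value was −1.67 without control replicate 2. *Hp* was at 2140 and 885.1 in DMBA+TAM replicates 1 and 2. The 8 fat markers summed to 5155 and 2472 in these libraries and to 54.89 to 265.6 elsewhere. Their part in the level of *Hp* was not tested.

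The mRNA of regulators known to drive these genes was also tested. Of 6 genes of the hypoxia pathway, 4 rose and 1 fell, with *Epas1* at 1.04 ± 0.12, *Hif1a* at 1.03 ± 0.26 and *Egln3*, a prolyl hydroxylase, at −2.10 ± 0.32. The *Hif1a* call was lost without control replicate 1 (0.89). Of 9 genes of Nrf2 and Bach1, the activator and repressor that act on *Hmox1*, and their targets, 8 fell and none rose (median −1.97 against −0.17 for all genes). *Srxn1* and *Nqo1*, textbook Nrf2 targets, fell by 4.16 ± 0.24 and 3.69 ± 0.45. Nrf2 itself (*Nfe2l2*) was at 241.9 and 273.4 normalized CPM in control and 118.8 and 115 in DMBA+TAM, and *Bach1* at 226.5 and 218.7 and at 108.7 and 102.7. These mRNA levels do not measure the activity of the proteins. They come from libraries with few epithelial reads, where fewer cells of a type and less RNA per cell cannot be told apart. The part of these regulators in the level of *Hmox1* was not tested.

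**Figure D5:**
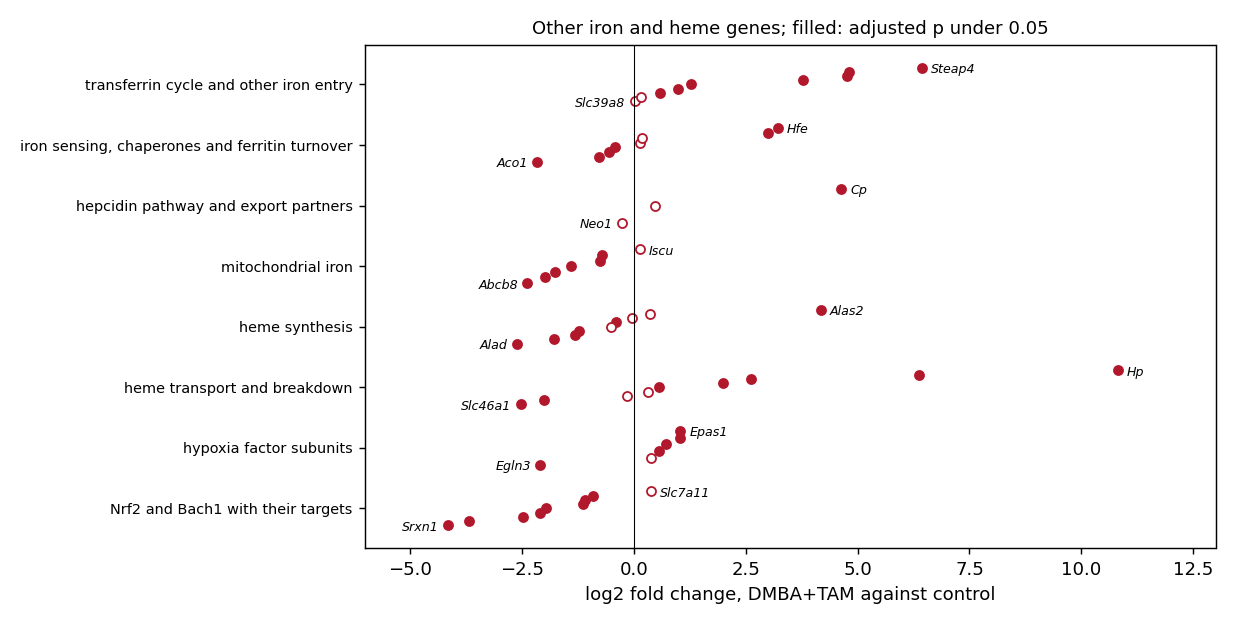
Log2 fold change in DMBA+TAM against control of 60 of 62 tested genes in 8 lists, 1 point per gene; filled points have an adjusted p under 0.05, and the names mark the lowest and highest genes of a list. The 2 genes with 3 reads or fewer in every library of a group, *Tfr2* and *Ltf*, are left out; genes of mitochondrial iron and of Nrf2 and Bach1 lie mostly below 0, and *Hp*, *Steap4*, *Cp* and *Alas2* far above it.

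In DMBA against control, where 24.5% of all genes were called higher and 23.3% lower, 7 of 8 genes of iron sensing and ferritin turnover fell and none rose (4 lower and 1 higher with library size scaling), with *Aco1* at −1.85 ± 0.15 and *Fbxl5*, the ligase subunit that removes iron regulatory protein, at −0.93 ± 0.15. Of 9 genes of Nrf2 and Bach1 with their targets, 7 fell and 1 rose, with *Bach1* at −1.96 ± 0.12 and *Slc7a11*, the cystine transporter, at 1.41 ± 0.45. The *Slc7a11* call was lost without DMBA replicate 2 (0.54), control replicate 1 (1.43) or control replicate 2 (1.39). It was also lost when only the groups compared were fitted (1.41). With library size scaling 5 of these 9 were lower and 1 higher. In TAM long 4 of 8 and 4 of 9 fell in these lists beside 22.8% of all genes, and 2 of each list with library size scaling. *Hfe* was the 1 gene of these lists called higher there (0.62 ± 0.22, adjusted p = 0.0428), in 6 of 13 alternatives. This call was lost without any 1 of the 4 libraries (0.57 to 0.66). It was also lost with DESeq2 (0.62), in the fit without DMBA+TAM (0.60) and with the replicate block (0.62). In TAM short 1 of 8 and 1 of 9 fell, near the 7.8% of all genes. No difference between comparisons was tested for these lists. Of the 11 genes of the transferrin cycle list, 3 rose and 2 fell in DMBA, and 3 rose and 3 fell in TAM long. *Steap4* rose (2.79 ± 0.42 in DMBA, 3.64 ± 0.41 in TAM long), and *Slc39a14*, a transporter of iron and zinc, fell (−2.01 ± 0.18 and −1.85 ± 0.18). *Ltf* fell too, from 21 and 35 reads in control to 3 and 2 in DMBA (−3.64 ± 0.72) and 9 and 1 in TAM long (−2.82 ± 0.65); the latter ran from −4.85 without TAM long replicate 1 to −2.07 without TAM long replicate 2, and was not called without control replicate 2 (−2.36, with adjusted p from 4.1e-06 to 0.0631 over 12 alternatives). *Slc46a1*, which imports heme and folate in the gut, fell by 3.13 ± 0.41 in DMBA, 2.10 ± 0.39 in TAM short and 3.46 ± 0.42 in TAM long, the TAM short call being lost without either of its libraries (−2.02 and −2.18). These sizes rest on control replicate 2, without which they were −2.25, −1.21 and −2.58. *Slc48a1*, which moves heme out of endosomes, rose by 1.51 ± 0.13 in DMBA and 1.53 ± 0.13 in TAM long.

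The genes whose levels followed each iron gene most closely over the 10 libraries were ranked by Pearson r of log2 normalized CPM taking only genes that average 50 reads or more. They were *Emilin2* and *Folr2*, a gene of tissue macrophages, for *Hmox1* (r = 0.995 for both), and *Azi2* and *Tmem236* for *Heph* (0.995 for both). For *Tfrc* they were *Ndfip2* (0.994) and *Cdkn2aip* (0.993), for *Cybrd1* the mitochondrial genes *Tufm* (0.991) and *Ndufa12* (0.990), and for *Slc40a1* *Plscr1* (0.989) and *Prkab1* (0.983). For *Slc11a2* they were *Capn1* (0.979) and *Otud4* (0.978), and for *Ftl1* *Hoxd8* (0.958) and *Ank* (0.945). *Fth1* had no close match, with 0.841 for a gene without a symbol and 0.785 for *Stx16*. These values describe 10 libraries in which DMBA+TAM stands apart in marker genes and depth. *Cybrd1* itself averaged fewer than 50 reads and had 1 read in each DMBA+TAM library. Its values there depend on the prior count, so its r is less certain than the others.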

How the data were processed

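RNA was sequenced from 10 organoid libraries. The authors mapped reads with TopHat (GRCm38, patch p6 per the labels), counted reads per gene with HTSeq and deposited counts and FPKM in a single table. Of its 47074 lines 5 are parts of split lines without counts. The deposited FPKM equalled count over listed length and library total within 0.1% for 36.7% of values. Adjusted p-values and fold changes of the authors' own comparisons were not used here.

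Counts were tested with edgeR 4.0.16 (R 4.3.3): filterByExpr and TMM, then the quasi-likelihood test on 5 group means, with p-values adjusted by Benjamini-Hochberg across 16179 genes and called at 0.05. An exact permutation test of 2 against 2 libraries cannot go below p = 0.333 and was not used. The alternatives were library size scaling, DESeq2 1.42.0, no filter, only the groups compared, a fit without DMBA+TAM, a replicate block, limma 3.58.1 on log2(FPKM + 1) or log2(FPKM + 0.1), counts thinned to the smallest total, and each library left out in turn, where the lone library of a group was assumed to vary like the others. Steps were tested on simulated data. Intervals are Clopper-Pearson on pooled counts.

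The 8 genes and the lists were chosen with earlier results of these data known. Named are the 8 genes, the targeted gene, up to 2 largest rises and 2 largest falls per list among genes called in DMBA+TAM against control, and the 2 genes most like each iron gene; list genes in other comparisons, *Hamp*, *Hfe2*, *Nfe2l2* and *Bach1* in DMBA+TAM and the *Aco1* values by library were added after their values were seen. Of the genes under this rule, 1 is not reported here. List symbols *Flvcr1*, *Flvcr2*, *Prac1* and *Ahsp* were not matched in the table.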

Additional observations from a re-analysis of the deposited data

How the results depend on the processing

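The rises of *Slc40a1* in the 3 groups DMBA, TAM short and TAM long, of *Hmox1* in DMBA+TAM, and the falls of *Tfrc* in DMBA and DMBA+TAM and of *Heph* and *Slc11a2* in DMBA+TAM against control, kept direction and call in every alternative run. Over all 8 genes and 8 comparisons, 463 of 544 values kept direction and call, 28 lost and 36 gained a call and 17 changed sign; with single libraries left out it was 214 of 256, with 26, 6 and 10. For the largest changes of other iron and heme genes against control (68 results), 790 of 856 values kept both and 66 lost the call. The cause of these changes was not tested. No value of the opposite sign was called, though in 2 of the ranges below the end of the original sign was (−0.88 and −0.77). For *Fth1* in DMBA they were 0.25 (library size), 0.20 (limma), 0.01 (thinned) and −0.42 to 0.18 with a library left out, and for *Ftl1* −0.09 to 0.32. In TAM short they were 0.01 (library size, limma) and −0.20 to 0.04 with a library left out for *Fth1*, 0.01 and −0.17 to 0.01 for *Ftl1*, and −0.33 to 0.75 for *Hmox1*; in DMBA+TAM against TAM long −0.88 to 0.12 for *Fth1*; in TAM long against TAM short 0.10 (library size, limma) and 0.03 (thinned) for *Tfrc*, and 0.14 (library size), 0.05 (limma), and −0.77 to 0.35 with a library left out for *Slc40a1*. In TAM short against control 2 of 8 iron genes were called with library size, DESeq2, no filter, thinned counts or the fit without DMBA+TAM, and 3 with only the groups compared, which called 4317 genes in place of 2317. Thinned counts gave 1269 genes there, 3995 in TAM long against TAM short, 4581 in TAM long and 4761 in DMBA against control, where by construction fewer reads enter. TAM long had 3 iron genes called by limma and 7 by DESeq2 or with no filter, and TAM long against TAM short 5 with no filter. With single libraries left out, 669 to 1057 genes were called in TAM short; 4946 to 5573 genes and 2 to 4 iron genes in TAM long; and 4258 to 5017 genes and 1 to 3 iron genes in TAM long against TAM short. The replicate block changed 1 of 64 calls of the 8 genes: *Cybrd1* in DMBA was called (−0.76, adjusted p 0.0412, with 0.0412 to 0.593 over 13 alternatives). With this block the call of *Hfe* in TAM long against control was lost (0.62, adjusted p 0.052). Nothing in the labels says that replicate numbers pair libraries, and the correlation of same-numbered deviations ran from −0.0414 to 0.26, positive in 5 of 10 pairs. In DMBA+TAM, *Cybrd1* (1 read in each library) and *Slc40a1* (8 and 5 reads) had the fewest reads of the 8 genes.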
